A study of Mus musculus with 4 samples.

Results

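The genes of the Wnt signalling pathway were examined in NIH/3T3 cells after depletion of *Setd2*. They were taken by symbol from the protein-coding rows of a transcript table, as the Wnt ligands, the enzymes and carriers that release them, the Frizzled and LRP receptors, the secreted antagonists, the regulators of receptor turnover, the Dishevelled proteins with their Nkd antagonists, the scaffolds Axin and APC, β-catenin and the TCF/LEF factors. This gave 69 transcripts of 40 genes, of 34200 transcripts of 21945 genes in all. The rule takes 59 protein-coding genes of the GENCODE M21 annotation (mouse genome GRCm38), of which 19 had no tested transcript and were not analysed here. These were the ligand genes *Wnt1*, *Wnt2*, *Wnt3*, *Wnt3a*, *Wnt5b*, *Wnt6*, *Wnt7b*, *Wnt9b*, *Wnt10a* and *Wnt11*, the receptor genes *Fzd8*, *Fzd9* and *Fzd10*, the antagonist genes *Dkk4*, *Sfrp1*, *Sfrp2* and *Sfrp5*, and *Axin2* and *Tcf7*.

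NIH/3T3 is an immortalised line of mouse fibroblasts, and SETD2 is the methyltransferase that trimethylates lysine 36 of histone H3 along transcribed genes. In the knockdown (KD) group, cells received a pair of siRNAs against *Setd2* together at 10 nM, and in the group labelled Wild type (WT) they received a Scrambled, non-targeting siRNA at the same concentration. Polyadenylated RNA was taken 48 h after transfection, and 2 KD and 2 WT libraries were sequenced. The study's design speaks of independent transfections, but no label ties a library to one, so the p-values measure the spread between these 4 libraries. The series compared KD with WT cells to see what *Setd2* depletion does to transcripts.

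In the canonical Wnt pathway, a secreted ligand brings a Frizzled receptor together with LRP5 or LRP6, Dishevelled is recruited to the receptors, and the complex of Axin, APC, GSK3 and casein kinase that marks β-catenin for degradation is stopped. β-catenin then accumulates and acts with TCF/LEF factors on target genes. Other Wnt ligands, WNT5A among them, mainly act through routes that do not need β-catenin and that steer cell shape and movement, and fibroblasts are a known source of this ligand. The pathway is controlled largely at the level of protein stability, which RNA does not show.

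A level here is a number of reads that the authors' software estimated for a transcript, normalised between libraries, and is given as the mean of a group on the log scale turned back into counts. Values of single libraries were not used, so the depth is unknown, whether the libraries of the groups overlapped was not examined, and the replicate spread is given as the standard deviation (SD) within groups and as a 95% confidence interval of the difference, with n = 2 in each group throughout. *Setd2* itself had a level of 3680 in WT and 923 in KD, a log2 difference of -1.99 (95% confidence interval -2.21 to -1.78, adjusted p = 0.0144 by limma's moderated test). The fibroblast markers *Col1a1*, *Col1a2*, *Vim*, *Thy1*, *Pdgfra*, *Pdgfrb*, *Fn1* and *S100a4* were all measured, with summed levels of 1246220 in WT and 1121580 in KD. The summed levels of the epithelial list (2 of 4 genes tested) were 119 and 158, of the endothelial list (3 of 3) 57.3 and 84.1, of the leukocyte list (3 of 3) 811 and 678, and of the muscle list (1 of 3) 149 and 143, in WT and KD. Of the fibroblast markers, 2 genes rose (*Fn1* and *Pdgfra*) and 2 fell (*Col1a1* and *Col1a2*), of the leukocyte markers *Lyz2* fell, and no transcript of the other marker lists passed the test. In bulk RNA, fewer cells that hold a transcript and less of it per cell cannot be told apart.

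Several of these genes give more than 1 tested transcript, and for 3 of them a short stretch that differs between the transcripts is shown, although other parts of the *Wnt5a* and *Tcf7l1* transcripts, such as their ends, differ as well. The sequences are from the GENCODE M21 transcripts, written 5′ to 3′ in the sense of the gene, with capitals for the bases that the other tested transcript of the gene lacks at that place. The *Wnt5a* transcripts begin with different first exons on chromosome 14. The windows chr14:28511409-28511837 for ENSMUST00000112272.1 and chr14:28506100-28511837 for ENSMUST00000063465.11 run from the first exon across an intron into the shared next exon, on the plus strand. The start codon of the longer reading frame (380 codons) lies in the first exon of ENSMUST00000063465.11, while ENSMUST00000112272.1 has a frame of 360 codons.
Wnt5a ENSMUST00000112272.1: GTTGCTCCGGCCCAGaagcccattggaata
Wnt5a ENSMUST00000063465.11: CCCCTCGCCATGAAGaagcccattggaata
In *Porcn*, whose product attaches the lipid that a Wnt ligand needs to be released, and in *Tcf7l1*, which codes for a TCF factor that often acts as a repressor, a small coding exon is used or skipped. It holds 18 bases in *Porcn* (chrX:8201555-8203173 with its flanks and introns, minus strand) and changes the frame from 450 to 456 codons. It holds 42 bases in *Tcf7l1* (chr6:72634218-72649134, minus strand) and changes the frame from 585 to 599 codons.
Porcn ENSMUST00000082320.11: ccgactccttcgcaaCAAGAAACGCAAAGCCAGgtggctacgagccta
Porcn ENSMUST00000089402.9: ccgactccttcgcaagtggctacgagccta
Tcf7l1 ENSMUST00000114053.8: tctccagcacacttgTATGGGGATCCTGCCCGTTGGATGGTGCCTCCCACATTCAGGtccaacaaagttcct
Tcf7l1 ENSMUST00000069536.11: tctccagcacacttgtccaacaaagttcct

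The levels of the pathway genes were compared per kilobase of transcript, with all tested transcripts of a gene added up. In WT cells, *Wls*, the carrier of Wnt ligands to the cell surface, stood highest at 5118 normalised estimated counts per kb, followed by *Ctnnb1*, the β-catenin gene, at 4104. The Dishevelled genes *Dvl1*, *Dvl2* and *Dvl3* followed at 1600, 1304 and 936, with *Axin1* between them at 1021. Of the ligands, *Wnt5a* had by far the highest level, 641 per kb, and the next, *Wnt9a*, had 82.5. The other 7 ligands were at 49.0 or below. *Fzd2* led the Frizzled receptors at 640 per kb, *Lrp6* the co-receptors at 616 against 366 for *Lrp5*, *Lgr4* the genes of receptor turnover at 463, and *Tcf7l2* the TCF/LEF factors at 746, against 274 for *Tcf7l1* and 36.0 for *Lef1*. Of the secreted antagonists, *Dkk2* was highest at 87.0 per kb, and *Dkk3*, *Dkk1* and *Sfrp4* were at 11.5 or below. No error can be given for these sums, and such levels compare genes only as far as the estimate of reads for each transcript is right. In KD cells the order at the top was exchanged, with *Ctnnb1* at 5351 and *Wls* at 5039 per kb, while the ligands stayed led by *Wnt5a* at 485 per kb.

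**Figure D1:**
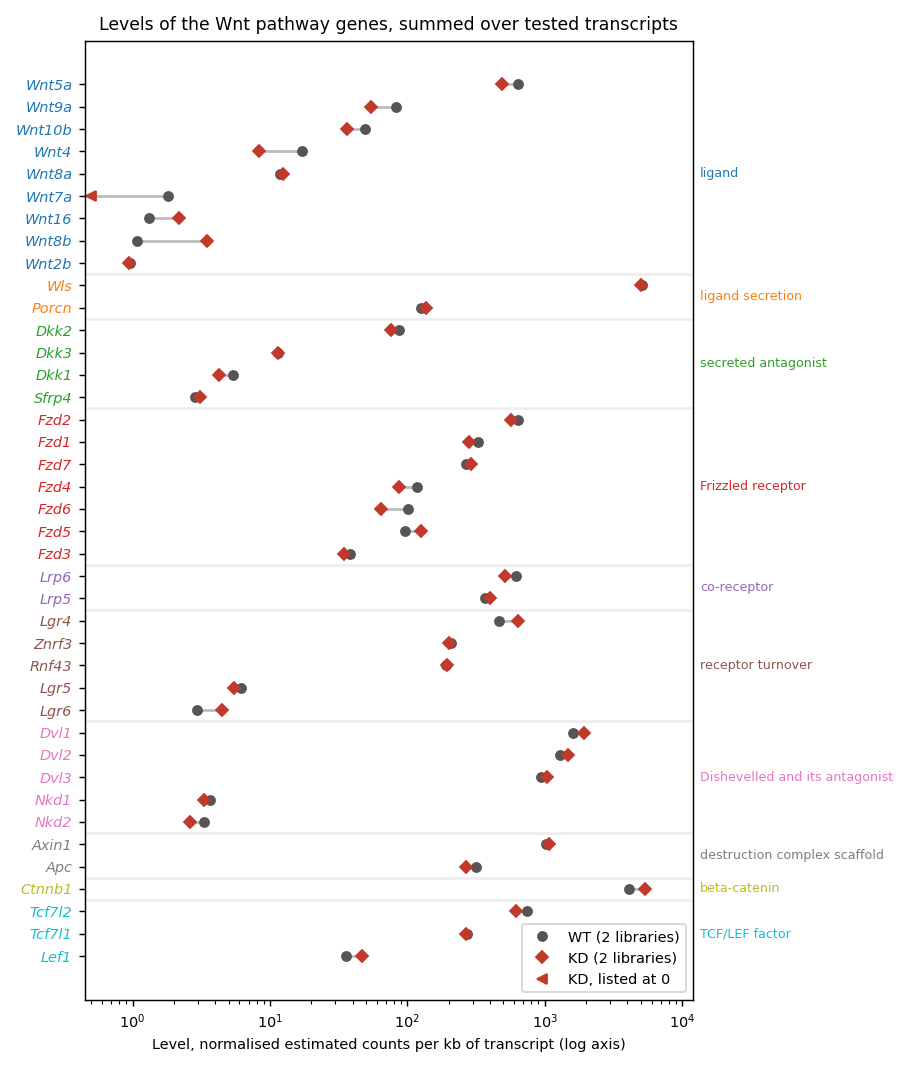
Levels of the 40 Wnt pathway genes in WT (circles) and KD (diamonds), in normalised estimated counts per kb of transcript on a log axis, with the tested transcripts of each gene added up and grouped by role, with no error bars. *Wls* and *Ctnnb1* stand highest in both groups and *Wnt5a* stands above the 8 other ligands, while *Wnt7a* is listed at 0 in KD.

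Between KD and WT, 1 of the 69 transcripts passed the test at an adjusted p under 0.05 over the whole table. Over all transcripts tested, 9.68% were called, 5.44% higher and 4.24% lower in KD, a balance that turned when differences were centred on the median (1476 higher and 1692 lower). With a mean level of at least 100 normalised estimated counts, 1 of 39 transcripts of the pathway was called, against 15.6% of all transcripts at such levels. At an unadjusted p under 0.05, 17 of the 69 transcripts remained (24.6%), 7 higher and 10 lower in KD, beside 28.2% of all transcripts. Summed over its transcripts, 17 of the 40 genes (42.5%) had a higher level in KD and 23 a lower one. Of all genes, 47.5% had a higher level. The median log2 difference was -0.02, beside -0.03 for all genes. With a level of at least 100, 44.4% of 27 pathway genes were higher in KD, beside 54.3% of all such genes. The medians there were -0.03 and 0.04. The intervals were narrow for the abundant members. Of the 39 transcripts at such levels, 31 had a 95% confidence interval that lay wholly within a log2 difference of 1 in either direction, and 15 within 0.5. The SD within groups had a median of 0.12 on the log2 scale in these 39 transcripts and of 0.48 in the 30 with lower levels, of which 2 had an interval within a log2 difference of 1. For most of the low members a change of at least that size could therefore not be excluded at this number of libraries.

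**Figure D2:**
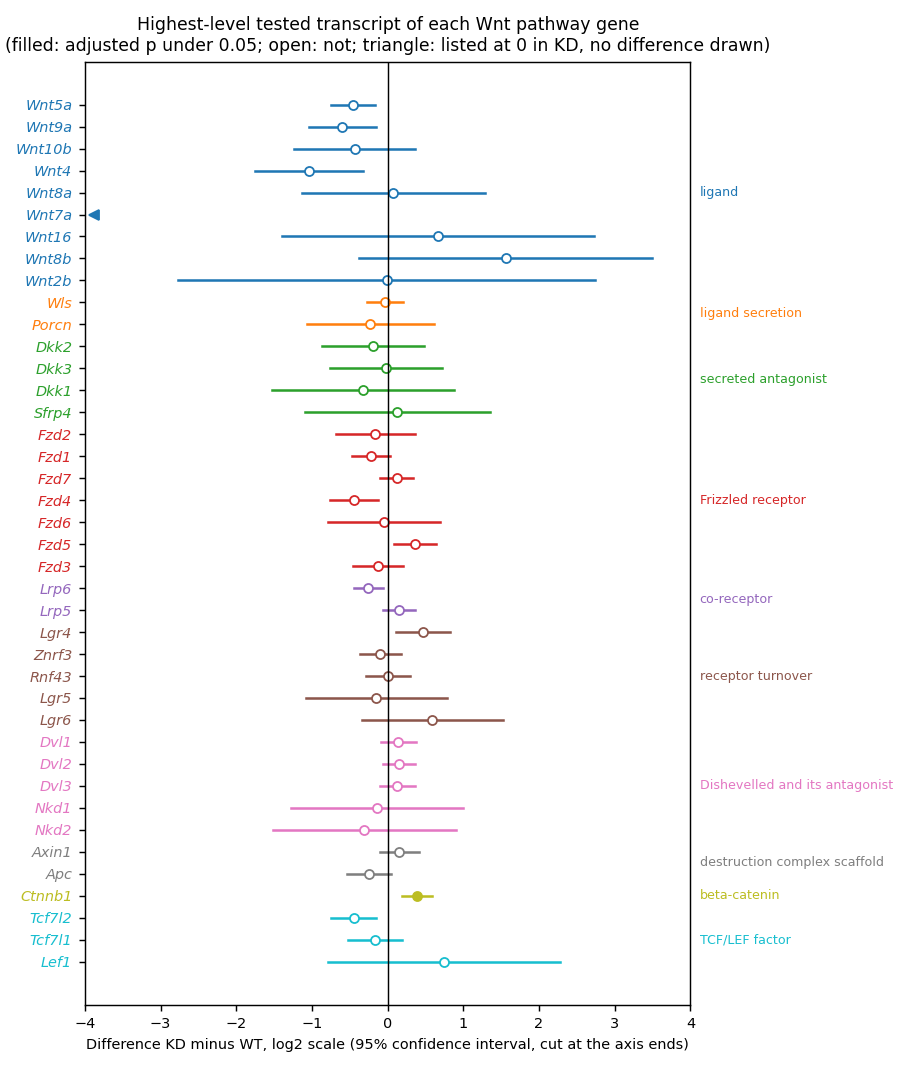
Difference between KD and WT on the log2 scale for the transcript with the highest mean level of each of the 40 genes (points) with its 95% confidence interval (lines, cut at the axis ends), grouped by role. *Ctnnb1* is the filled point, called at a log2 difference of 0.38, and *Wnt7a*, listed at 0 in KD, has a triangle in place of a difference.

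The called transcript was that of *Ctnnb1* (ENSMUST00000007130.14), which codes for β-catenin and lies on chr9:120933400-120960507, plus strand, with 15 exons and a reading frame of 781 codons. Its level was 14868 in WT and 19386 in KD, with an SD within groups of 0.07 on the log2 scale. It was thus 30.4% higher in KD (95% confidence interval 13.6% to 49.6%), a log2 difference of 0.38 (0.18 to 0.58), with an adjusted p of 0.0492 by limma. The call was lost when the variance was moderated without a trend (adjusted p = 0.194) and when all differences were centred on the median of abundant transcripts (log2 difference 0.33, adjusted p = 0.0651). It was kept when only transcripts with a mean of at least 100 were tested (adjusted p = 0.0264). A normal test with the variance of read assignment kept it too (adjusted p = 1.73e-05). Of its words of 31 bases, 19.5% also occur, read on the opposite strand, in a transcript of *Ulk4*, a kinase gene that overlaps its 3′ end. The tested *Ulk4* transcript had levels of 157 in WT and 265 in KD, and its part in the estimate for *Ctnnb1* was not tested.

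Among the ligands, 9 genes had a tested transcript and none was called. *Wnt5a*, the main ligand of these cells, had summed levels of 2799 in WT and 2170 in KD. Its transcript ENSMUST00000112272.1 had a level of 1841 in WT and 1338 in KD, a log2 difference of -0.46 (95% confidence interval -0.75 to -0.17, adjusted p = 0.0731). The other, ENSMUST00000063465.11, had 958 and 832, a log2 difference of -0.20 (-0.48 to 0.07). The first passed the test when only transcripts with a mean of at least 100 were tested (adjusted p = 0.0338), and by the normal test (adjusted p = 0.00194). It did not pass without a trend (adjusted p = 0.194) or with centred differences (adjusted p = 0.0612). Of its words of 31 bases, 0.470% are not shared with the other transcript, while 48.3% of those of the other are not shared with it. The SD that comes from assigning reads was 0.05 and 0.08 on the log2 scale in the 2 transcripts. *Wnt4* had levels of 72.1 in WT and 34.8 in KD, a log2 difference of -1.04 (-1.76 to -0.33, adjusted p = 0.0851), and *Wnt9a* 274 and 180 (log2 difference -0.60, -1.04 to -0.16, adjusted p = 0.0974). *Wnt7a* was at 5.70 in WT and was listed at 0 in KD. The 4 ligands with the highest levels, *Wnt5a*, *Wnt9a*, *Wnt10b* and *Wnt4*, all had lower levels in KD, and none of the differences passed the test. The other ligands, *Wnt2b*, *Wnt8a*, *Wnt8b* and *Wnt16*, had levels between 3.12 and 21.7 in either group, with intervals that reached from at least 1 below to at least 1 above on the log2 scale for all but *Wnt8b* (-0.38 to 3.49).

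Neither gene of ligand secretion had a called transcript. *Wls* had a log2 difference of -0.04 (95% confidence interval -0.27 to 0.20) in its main transcript, with levels of 8536 in WT and 8328 in KD, and -0.01 (-0.25 to 0.23) in the other, and both transcripts code for 541 codons. In *Porcn*, the transcript without the small exon had levels of 170 in WT and 144 in KD, and that with it 64.2 and 112. The transcript with the small exon thus made up 27.4% of the tested *Porcn* level in WT and 43.7% in KD. With SDs within groups of 0.44 and 0.61 on the log2 scale, neither passed the test (adjusted p = 0.686 and 0.314 by limma). The SDs that come from assigning reads were 0.63 and 1.63, the latter larger than the log2 difference of 0.80 of the transcript with the small exon. By the normal test with this variance added, the adjusted p was 0.913 and 0.861.

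The secreted antagonists were low, and no transcript of theirs passed the test. *Dkk2*, which binds LRP5 and LRP6, had a level of 322 in WT and 282 in KD (log2 difference -0.19, 95% confidence interval -0.86 to 0.48). *Dkk1*, *Dkk3* and *Sfrp4*, the last of which binds the ligands themselves, ranged from 10.3 to 38.8 in either group.

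Of the 7 Frizzled genes, the receptors for the ligands, none had a called transcript. *Fzd2*, the highest, had levels of 2344 in WT and 2095 in KD (log2 difference -0.16, 95% confidence interval -0.68 to 0.36). *Fzd4* had 790 and 581, a log2 difference of -0.44 (-0.76 to -0.12, adjusted p = 0.0945), and *Fzd5* 650 and 836, a log2 difference of 0.36 (0.09 to 0.64, adjusted p = 0.105) in its main transcript. That of *Fzd5* shares 17.1% of its words of 31 bases with *Gm38058*, annotated on the opposite strand, which had levels of 8.07 and 7.02. The 2 transcripts of *Fzd6* differed in how they stood between the groups, with 174 in WT and 168 in KD for the first and 251 and 97.8 for the second, whose SD within groups was 0.61. Their adjusted p was 0.934 and 0.122 by limma. The SDs that come from assigning reads were 0.76 and 0.66 on the log2 scale. By the normal test with this variance added, the adjusted p was 0.989 and 0.182. The main transcripts of *Fzd1*, *Fzd3* and *Fzd7* had log2 differences between -0.22 and 0.12.

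Neither co-receptor gene had a called transcript. *Lrp6* had levels of 5774 in WT and 4831 in KD, a log2 difference of -0.26 (95% confidence interval -0.45 to -0.06, adjusted p = 0.104), and *Lrp5* 1871 and 2080 in its main transcript, a log2 difference of 0.15 (-0.06 to 0.36, adjusted p = 0.291). Whether the co-receptors differ from each other in response was not tested. A short *Lrp5* transcript, ENSMUST00000176867.1, was the nearest to the threshold of those outside it, with 8.86 in WT and listed at 0 in KD (adjusted p = 0.0597).

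Receptor turnover is set by RNF43 and ZNRF3, ubiquitin ligases that remove Frizzled from the surface, and by the LGR receptors, which bind R-spondins and hold these ligases back. *Lgr4* had levels of 2344 in WT and 3240 in KD, a log2 difference of 0.47 (95% confidence interval 0.11 to 0.82, adjusted p = 0.104). It passed the test when only transcripts with a mean of at least 100 were tested (adjusted p = 0.0479), and by the normal test (adjusted p = 0.0438). It did not pass without a trend (adjusted p = 0.233) or with centred differences (adjusted p = 0.130). *Rnf43* and *Znrf3* had summed levels of 820 and 1117 in WT and of 831 and 1110 in KD, and the main transcript of *Rnf43* had a log2 difference of 0.004 (-0.29 to 0.30), whose sign turned when differences were centred. *Lgr5* and *Lgr6* were between 19.8 and 30.0 in either group.

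In the cytoplasm, the main transcripts of *Dvl1*, *Dvl2* and *Dvl3* had log2 differences of 0.14, 0.15 and 0.13, with intervals from -0.10 to 0.37. A second *Dvl2* transcript, ENSMUST00000190940.1, had levels of 569 in WT and 772 in KD (log2 difference 0.44, 95% confidence interval 0.11 to 0.77, adjusted p = 0.102) and shares 18.6% of its words of 31 bases with *Acadvl* on the opposite strand. The antagonists *Nkd1* and *Nkd2* were between 10.1 and 13.3 in either group. *Axin1*, the scaffold of the destruction complex, had summed levels of 3400 in WT and 3606 in KD, and *Apc* 3275 and 2981. The main transcript of *Axin1* had a log2 difference of 0.15 (-0.10 to 0.41) and that of *Apc* -0.25 (-0.53 to 0.04).

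The TCF/LEF factors carry the signal to DNA. *Tcf7l2* was measured by 9 transcripts, more than any other gene of the pathway, with summed levels of 1906 in WT and 1539 in KD. Of these, 6 had a lower and 3 a higher level in KD and none was called. At least 3 are annotated as retained introns in GENCODE M21 although the gene is protein-coding. Not all of the 9 could be looked up, since some, the highest among them, did not match that annotation with their version. The highest, ENSMUST00000111657.9, had 739 and 541, a log2 difference of -0.45 (95% confidence interval -0.75 to -0.15, adjusted p = 0.0801), and the next, ENSMUST00000061496.15, 535 and 523 (log2 difference -0.03, -0.80 to 0.74). For the highest, the SD that comes from assigning reads was 0.27, against an SD within groups of 0.10. Its adjusted p was 0.363 by the normal test with the variance of read assignment. *Tcf7l1* had summed levels of 779 and 739, of which the transcript with the small exon printed above made up 11.4% in WT and 16.9% in KD. That transcript had a log2 difference of 0.49 (-0.11 to 1.10, adjusted p = 0.245). *Lef1* was low, at 108 and 133 over 4 transcripts, 2 of which stood higher and 2 lower in KD. One of them, ENSMUST00000066849.12, had 19.9 in WT and 73.4 in KD (log2 difference 1.85, 0.66 to 3.04, adjusted p = 0.0745). The SD that comes from assigning its reads was 2.06 on the log2 scale, larger than the difference, and the adjusted p was 0.682 with this variance added. None of its words of 31 bases is missing from the other *Lef1* transcripts tested, and 35.0% of its words of 31 bases lie on the opposite strand of *Gm43352*. That antisense gene had levels of 7.66 in WT and 21.0 in KD, and its part in the *Lef1* values was not tested.

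Transcripts of the same gene did not always stand in the same direction. Of the 17 genes with more than 1 tested transcript, 8 had transcripts with higher and with lower levels in KD, and no pair of such transcripts included a called one. The share of such genes in the whole series was not examined, so 8 of 17 is a description only. In *Axin1*, ENSMUST00000118904.8 had 693 in WT and 1106 in KD and ENSMUST00000163421.7 731 and 300.5, so that the latter made up 21.5% of the tested *Axin1* level in WT and 8.33% in KD, while the sum of the gene differed by 0.08 on the log2 scale. Their SDs within groups were 0.34 and 1.08, and neither passed the test (adjusted p = 0.151 and 0.320 by limma). The SDs that come from assigning reads were 2.36 and 0.17 on the log2 scale, the first larger than the log2 difference of 0.68 of that transcript. By the normal test with this variance added, the adjusted p was 0.934 and 0.536. No more than 0.749% of the words of 31 bases of either are missing from the other *Axin1* transcripts tested.

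**Figure D3:**
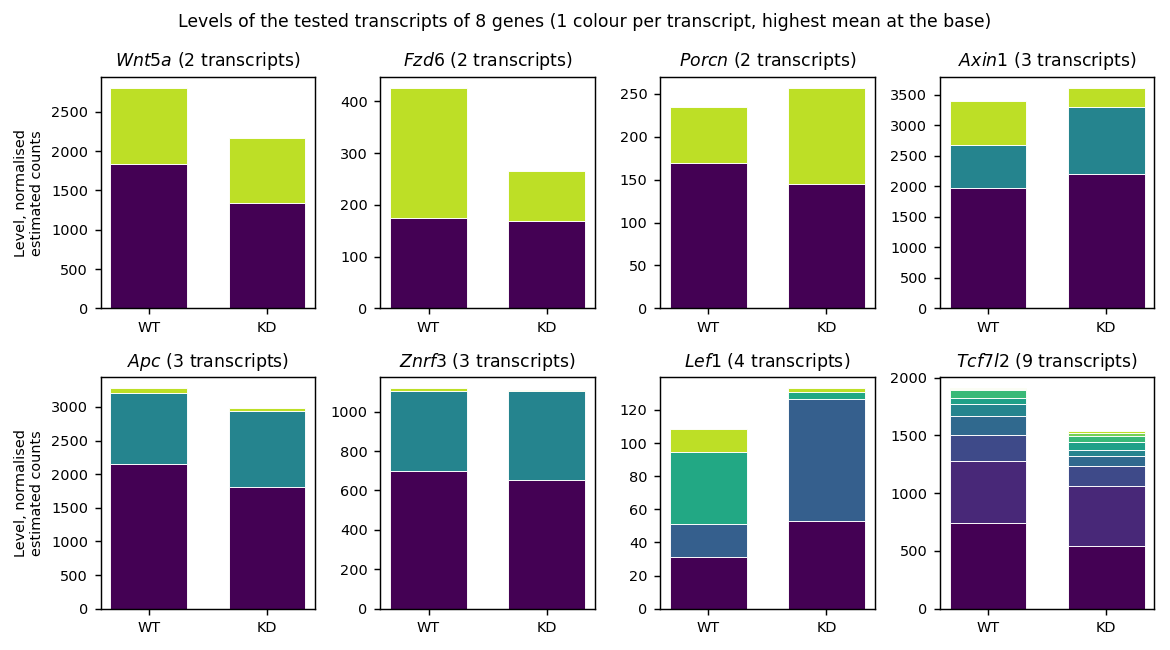
Levels of the tested transcripts in WT and KD for 8 genes of the pathway, stacked, in normalised estimated counts on a linear axis that starts at 0, with 1 colour for each transcript and no error bars. The sums of *Wnt5a*, *Fzd6* and *Tcf7l2* are lower in KD and those of *Axin1*, *Porcn* and *Lef1* higher, and no transcript of these 8 genes passed the test.

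The components around these genes were examined in 5 further lists, with 203 tested transcripts of 96 genes. Of these transcripts, 31 were called (15.3%), 20 higher and 11 lower in KD, beside 9.68% of all transcripts. Of the 203, 154 had a mean level of at least 100, and 15.6% of all transcripts at such levels were called. None of the 31 was called when the variance was moderated without a trend, and centring took the calls of *Tnks2*, *Trabd2b* and *Plaur*. Of the destruction complex and its turnover, 20 of 22 listed genes were tested, of which 4 had a transcript that rose and 2 one that fell (6 of 45 transcripts, 13.3%). *Ppp2r5a*, a regulatory subunit of protein phosphatase 2A, rose most, from 1597 in WT to 3228 in KD (log2 difference 1.01, 95% confidence interval 0.80 to 1.23), and the scaffold subunit *Ppp2r1a* and the tankyrase *Tnks2* rose as well. The GSK3 kinases, which phosphorylate β-catenin for degradation, went apart. *Gsk3a* rose from 2720 to 3867 (log2 difference 0.51, 0.32 to 0.70, adjusted p = 0.0289 by limma). The main transcript of *Gsk3b* fell from 3721 to 2701 (log2 difference -0.46, -0.66 to -0.27, adjusted p = 0.0350 by limma). *Csnk1a1*, the casein kinase that primes β-catenin for GSK3, had summed levels of 12855 and 13912 and no called transcript. *Csnk1g1*, a casein kinase of the gamma type, fell in its main transcript, with a log2 difference of -0.41.

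Of the nuclear co-factors of β-catenin, 21 of 22 were tested, of which 2 had a transcript that rose and 3 one that fell. The 6 calls among 52 transcripts (11.5%) were near the 9.68% of all transcripts. *Ctbp1*, a co-repressor, rose in 2 transcripts, with log2 differences of 0.52 and 0.78, and *Tle3*, a Groucho protein that binds TCF/LEF factors, in 1 of 8, which made up 5.38% of the tested level of the gene in WT, from 114 to 293 (log2 difference 1.36, 95% confidence interval 0.94 to 1.78). The *Tle3* call was lost by the normal test that adds the variance of read assignment (adjusted p = 0.680). *Hipk2* and *Nlk*, kinases that act on TCF/LEF factors, and *Tbl1xr1*, which exchanges co-factors on DNA, fell. *Hipk2* and *Tbl1xr1* did so in 1 of 4 transcripts each. The *Hipk2* transcript fell most, from 2048 to 1397 (log2 difference -0.55, -0.75 to -0.35), while the sum of that gene had a log2 difference of -0.35.

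Of the secreted modulators and their receptors, 9 of 19 were tested, and 1 had a transcript that rose and 2 one that fell. These were 3 of 11 transcripts (27.3%), beside 9.68% of all transcripts. Of the 11, 5 had a mean level of at least 100, and 15.6% of all transcripts at such levels were called. *Gpc6*, a glypican of the cell surface, fell from 178 in WT to 41.3 in KD (log2 difference -2.10, 95% confidence interval -2.62 to -1.57, adjusted p = 0.0190 by limma) in 1 of its 2 transcripts. The mean level of that transcript was 86.0, below 100. The other had 69.4 in WT and 43.1 in KD (log2 difference -0.68, -1.30 to -0.07, adjusted p = 0.147 by limma) and was not called. The sum of *Gpc6* had a log2 difference of -1.55. *Kremen1*, a receptor for the DKK antagonists, fell from 3068 to 2203 (log2 difference -0.48). *Trabd2b*, a membrane protease that inactivates Wnt ligands, rose from 113 to 195 (log2 difference 0.79). Of the non-canonical receptors and planar polarity genes, 19 of 22 were tested. The main transcript of *Scrib* rose from 3946 to 6008 (log2 difference 0.61) and that of *Prickle2* fell from 908 to 585 (log2 difference -0.63). Another of the 3 *Scrib* transcripts had 1526 in WT and 1323 in KD and was not called, and the sum of that gene had a log2 difference of 0.42. The share called in this list, 5.26% of 38 transcripts, was below the 9.68% of all transcripts.

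Of the genes commonly cited as targets of β-catenin and TCF/LEF factors, 27 of 35 were tested. Their 57 transcripts held 14 calls (24.6%), 11 transcripts of 7 genes higher and 3 transcripts of 3 genes lower, beside 9.68% of all transcripts. Of the 57, 46 had a mean level of at least 100, and 15.6% of all transcripts at such levels were called. All of these target genes are also under the control of other pathways. *Ccnd1*, the gene of cyclin D1, rose from 12395 in WT to 26498 in KD (log2 difference 1.10, 95% confidence interval 0.92 to 1.27, adjusted p = 0.0152 by limma), and *Sox9*, a transcription factor, from 1414 to 2965 (log2 difference 1.07, 0.84 to 1.30). *Vegfa*, the gene of vascular endothelial growth factor A, rose in 4 transcripts, with log2 differences from 0.64 to 1.45, and *Myc* in 2 of 4, with 0.62 and 0.73. These 2 *Myc* transcripts made up 13.0% and 15.2% of the tested level of the gene in WT. The main *Myc* transcripts, which had identical values, made up 35.9% each in WT. They had a log2 difference of 0.19 (adjusted p = 0.249 by limma), and the sum of the gene one of 0.34. *Trib3*, *Fosl1* and *Plaur* rose with 0.96, 0.56 and 0.48. *Wisp1*, a secreted matricellular protein gene, fell from 2643 to 1653 (-0.68, -0.87 to -0.48) and *Jun* from 11702 to 7436 (-0.65, -0.96 to -0.35). The third call was a minor transcript of *Cdkn1a*, an inhibitor of cyclin-dependent kinases, which fell from 655 to 406 (log2 difference -0.69, -0.99 to -0.39) and made up 5.28% of the tested level of the gene in WT. The main *Cdkn1a* transcript had levels of 11003 in WT and 14567 in KD (log2 difference 0.40, 0.17 to 0.64, adjusted p = 0.0608 by limma), and the sum of the gene was 12389 in WT and 15667 in KD. *Axin2*, the target most often used as a readout of the pathway, belongs to the genes that were not analysed here. The median log2 difference of the 27 genes, summed over their transcripts, was 0.16. It was -0.03 for all genes and 0.04 for all genes with a level of at least 100.

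**Figure D4:**
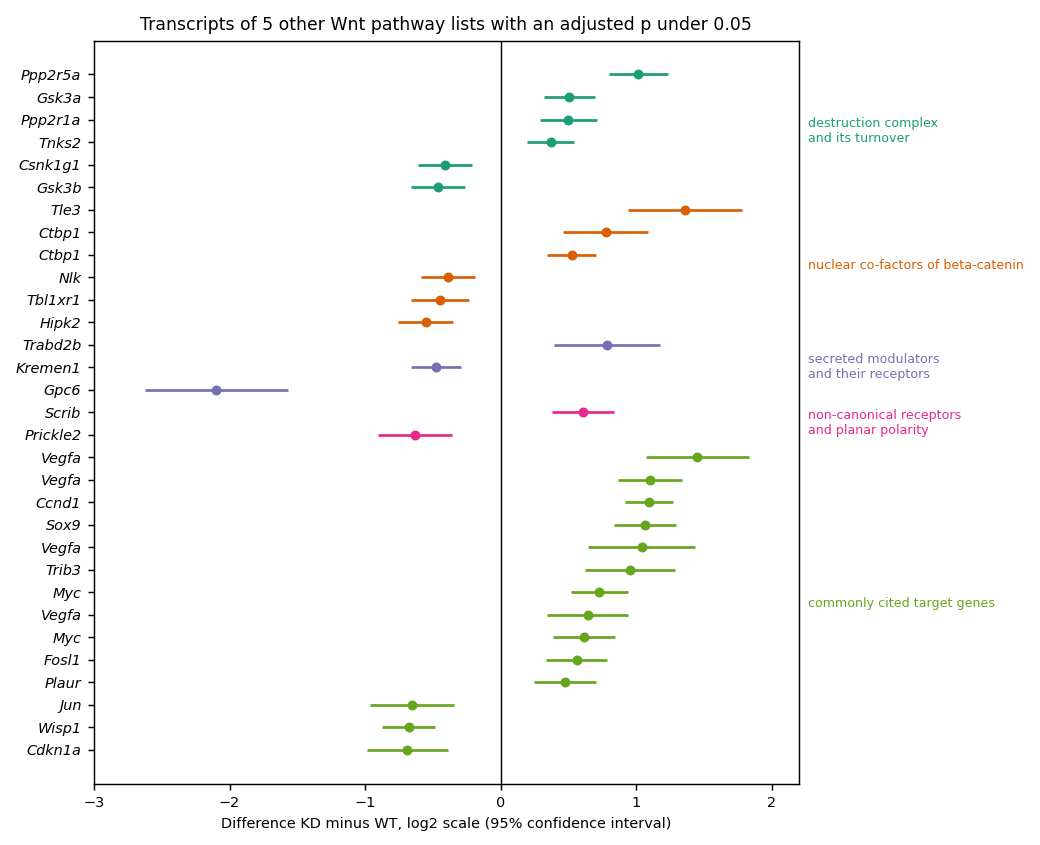
Differences between KD and WT on the log2 scale (points) with 95% confidence intervals (bars) for the 31 transcripts with an adjusted p under 0.05 in 5 lists of other pathway components and target genes, 1 line per transcript. Among the target genes 11 transcripts lie above 0 and 3 below, that of *Cdkn1a* being a minor transcript of its gene, and *Gsk3a* and *Gsk3b* lie on opposite sides of 0.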

How the data were processed

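NIH/3T3 libraries were grouped by the *Setd2* condition in their labels (2 KD, 2 WT). The authors trimmed adapters with BBDuk, estimated transcript counts with Kallisto and compared the groups with Sleuth; the submitters' notes also name HISAT2, bcl2fastq 2.17 and GRCm38. The deposited natural log values (mean, group difference) come from estimated counts divided by the authors' size factors, plus 0.5, and the deposited variances (between libraries, of read assignment, fitted on the mean) are on the natural log scale too. The authors' p-values, q-values and test scores were not used. The authors' group difference was used, because group levels cannot be had without it, with the test computed anew. The transcript index, low-count filter and strand setting of Kallisto are not given in the sources used here.

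Levels are the exponential of the mean plus or minus 0.5 times the difference, minus 0.5. Each transcript was tested with limma 3.58.1 (R 4.3.3) from its residual variance (2 degrees of freedom), moderated with a trend on the mean, with Benjamini-Hochberg adjustment over all 34200 transcripts. The procedure was tested on simulated data. Positions, lengths and sequences came from GENCODE M21, in which 98.6% of all transcripts and 65 of the 69 member transcripts matched with their version. The alternatives were no trend, a normal test with the variance of read assignment, a mean of at least 100, and centred differences. A trend on the expected variance was added after seeing the data.

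The members and lists were chosen with earlier results of these data known. Named were genes with a called transcript, the highest of each role, those nearest the threshold, and the largest rise and fall in each list. Other genes were named after their values were seen.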

Additional observations from a re-analysis of the deposited data

How the results depend on the processing

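Of the 34200 transcripts, 3312 were called, against 127 without a trend, 6233 by the normal test with the variance of read assignment and 5526 with a trend on the expected variance, which was chosen after seeing the data. In the same order, the calls among the Wnt pathway genes were 1 (a different transcript, *Wnt7a*), 8 and 5, with 3 when only transcripts with a mean of at least 100 were tested and 0 with centred differences. The test limited to a mean of at least 100 called 4965 of 18808 transcripts over the whole table, beside these 3 of 39. Those 8 were *Ctnnb1*, *Wnt5a*, *Wnt4*, *Fzd4*, *Fzd5*, *Lrp6*, *Dvl2* and *Lgr4*. With centring, *Rnf43* turned to a log2 difference of -0.0443. Of the 31 calls in the 5 other lists, 0 were left without a trend, and 49 transcripts were called by the normal test. The remaining totals over all transcripts and over the 5 lists together stayed within 1.5 times the values given, but centring turned the balance over all transcripts from 1861 higher and 1451 lower to 1476 higher and 1692 lower. The median log2 difference of the 40 genes was -0.02, against -0.07 with centring and -0.07 with the highest transcript of each gene alone. The cause of these differences was not tested. Centring moved all differences by 0.05 on the log2 scale.

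No paired analysis was possible because values of single libraries were not used, and for the same reason leaving out each replicate in turn was not run. The unknown depth leaves transcripts with few reads without an interval for counting error.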
